A study of Arabidopsis thaliana with 6 samples.

Results

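MYB, bHLH (basic helix-loop-helix) and homeobox transcription factors were sought by gene symbol on Affymetrix arrays of whole Arabidopsis thaliana seedlings, and 5 bHLH genes were found: bHLH34, BHLH101, bHLH104, bHLH115 and bHLH121. Members were the probe sets annotated to 1 gene whose symbol starts with MYB, BHLH, HB, HDG, WOX, KNAT, BLH, PIF or PIL followed by a digit. They are 5 of 13513 probe sets with 1 annotated gene, in a table of 22810 probe sets. The annotation used here names 0 probe sets for each of the other 8 prefixes, so MYB and homeobox genes are not described under these names. RefSeq holds 209 Arabidopsis genes whose symbol meets the rule, 13 of them with the prefix BHLH, and those to which no probe set is assigned singly were not analysed here.

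The seedlings were stable T3 transgenics in the Col-0 background, aged 14 days and grown in 16 h light and 8 h dark. Both groups carried the same construct, in which estradiol lets the chimeric factor XVE enter the nucleus and switch on RPXΔC, derived from the NAC factor RPX, through a LexA promoter. The estradiol group received 10 µM estradiol for 2 h and the mock group received ethanol or medium without inducer, which the labels do not settle; each group had 3 arrays from samples labelled biological replicates. No line without RPXΔC is among the samples, so the inducer and the transgene cannot be told apart, and RPX has no probe set named for it here.

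The bHLH family binds DNA as dimers, and the 5 genes found belong to the branch that governs iron supply. In Arabidopsis bHLH34, bHLH104 and bHLH115, with ILR3 (bHLH105), form subgroup IVc, whose proteins act when iron is short and pair with bHLH121 of subgroup IVb. Together they switch on subgroup Ib genes such as BHLH101, whose products join the root regulator FIT to raise iron uptake, as well as PYE, another subgroup IVb regulator. The ubiquitin ligase BTS marks several subgroup IVc proteins for breakdown by the proteasome; the arrays measured transcripts and carry no information on protein.

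The mean signal after trimming 2% at each end was 100.01 on all 6 arrays, so the deposited values had been scaled to a common level. Alike median signals (35.7 to 38.7 linear units) therefore say little about the arrays. Some arrays stood apart in control signals. The 3′/5′ signal ratio of actin, a measure of RNA integrity, was 15.2 on estradiol replicate 3 and 4.37 to 6.11 on the other 5 arrays. The same ratio of GAPDH departed less, at 1.68 on estradiol replicate 3 and 0.969 to 1.15 on the other 5. The 25S rRNA control signal was 302 and 286 on mock replicates 1 and 2, against 1534 on mock replicate 3 and 918 to 1323 on the estradiol arrays. Root and shoot transcripts were both measured: the root glucosidase gene PYK10 gave 2219, 1634 and 2548 with estradiol, against 2541, 2445 and 2606 in mock, and the chlorophyll-binding protein gene LHCB4.2 gave 2511, 2291 and 2163 with estradiol, against 2451, 2557 and 2699 in mock. The seedlings were taken whole, so fewer cells of a type and less RNA per cell cannot be told apart in any value below.

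None of the 5 bHLH genes passed the threshold after estradiol. The count past a Benjamini-Hochberg adjusted p of 0.05 in limma was 0 of 5, while 0.114% of all 22746 tested probe sets passed, all of them higher. At an unadjusted p under 0.05 the count was 1 of 5, bHLH34, which was lower, against 4.58% of all probe sets lower and 3.96% higher at that level. The median log2 difference of the 5 was -0.06, beside -0.03 over all probe sets tested, and 3 of the 5 differences were negative, against 57.1% of all. That median is the value of BHLH101, whose signal was under 16 on all 6 arrays. Over the 4 members left by a filter at the 25th percentile of mean signal, the median was -0.02. Log2 differences are estradiol minus mock on log2(signal + 16), a scale that understates differences of dim probe sets.

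bHLH34 (AT3G23210), an activator of the iron deficiency response in subgroup IVc, had the largest difference of the 5. Its signal was 42.4, 34.5 and 37.2 with estradiol, against 47.2, 61.6 and 66.1 in mock. Every estradiol array lay below every mock array, and mock replicate 1 was the mock array nearest to the estradiol values. The mean was 38.0 ± 4.05 with estradiol and 58.3 ± 9.88 in mock (SD, n = 3 each), a ratio of 0.653. The log2 difference was -0.45 ± 0.132 SE (95% interval -0.77 to -0.14), with a limma p of 0.0111 and an adjusted p of 0.436 over all probe sets, so it did not pass. By its p, bHLH34 ranked at position 578 of the 22746 probe sets. All estradiol arrays lay below all mock arrays in 7.74% of all probe sets and in 1 of the 5 members.

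Because the groups of bHLH34 do not overlap, its sign could not turn with any array left out, so only the size is informative. With each array left out the bHLH34 difference lay between -0.57 without mock replicate 1 and -0.38 without mock replicate 3. Set against mock replicate 3 alone, the array with the high 25S rRNA signal, it was -0.61, and without the arrays numbered 3 of both groups it was -0.37 with an unadjusted limma p of 0.0711.

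bHLH104 (AT4G14410), the subgroup IVc gene whose protein pairs with ILR3, varied widely within both groups. Its signal was 223, 155 and 292 with estradiol, against 143, 224 and 246 in mock, so the groups overlapped over most of their range. The highest array, estradiol replicate 3, was 2.04 times the lowest, mock replicate 1. The mean was 224 ± 68.5 with estradiol and 205 ± 54.0 in mock (SD, n = 3 each), and the log2 difference of 0.11 ± 0.266 SE (limma adjusted p = 0.941) had a 95% interval of -0.52 to 0.74. Its residual SD of 0.404 log2 units was larger than that of 95.4% of the probe sets tested. The sign turned without mock replicate 1 (-0.11) and without estradiol replicate 3 (-0.09), the array with the raised actin ratio.

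bHLH115 (AT1G51070), the third subgroup IVc member measured, was steady. It gave 160, 138 and 170 with estradiol, against 158, 168 and 171 in mock. Only estradiol replicate 2 lay outside the range of the mock arrays. The mean was 156 ± 16.0 with estradiol and 166 ± 6.72 in mock (SD, n = 3 each), and the log2 difference was -0.09 ± 0.108 SE (limma adjusted p = 0.864). Its 95% interval, -0.34 to 0.17, corresponds to a fold between 0.789 and 1.13 on the log2(signal + 16) scale.

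bHLH121 (AT3G19860), also called URI, is the partner of the subgroup IVc proteins at their target promoters. Its signal was 191, 228 and 209 with estradiol, against 205, 181 and 226 in mock, and the groups covered nearly the same range. The mean was 209.6 ± 18.6 with estradiol and 204 ± 22.8 in mock (SD, n = 3 each). The log2 difference was 0.04 ± 0.121 SE (limma adjusted p = 0.961), with a 95% interval of -0.25 to 0.32 or a fold of 0.841 to 1.25 on the same scale.

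BHLH101 (AT5G04150), the subgroup Ib gene that the other 4 are known to act upon, had low values on every array. It gave 6.69, 0.437 and 11.6 with estradiol, against 1.59, 5.84 and 14.6 in mock. All 6 values lay under the pseudocount of 16, and whether any lies above background is not known because the deposited signals carry no detection calls. The mean was 6.25 ± 5.61 with estradiol and 7.33 ± 6.61 in mock (SD, n = 3 each), and the groups overlapped. The log2 difference was -0.06 ± 0.258 SE (limma adjusted p = 0.971) and its 95% interval was -0.67 to 0.55. With a pseudocount of 1 the difference was -0.33.

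**Figure D1:**
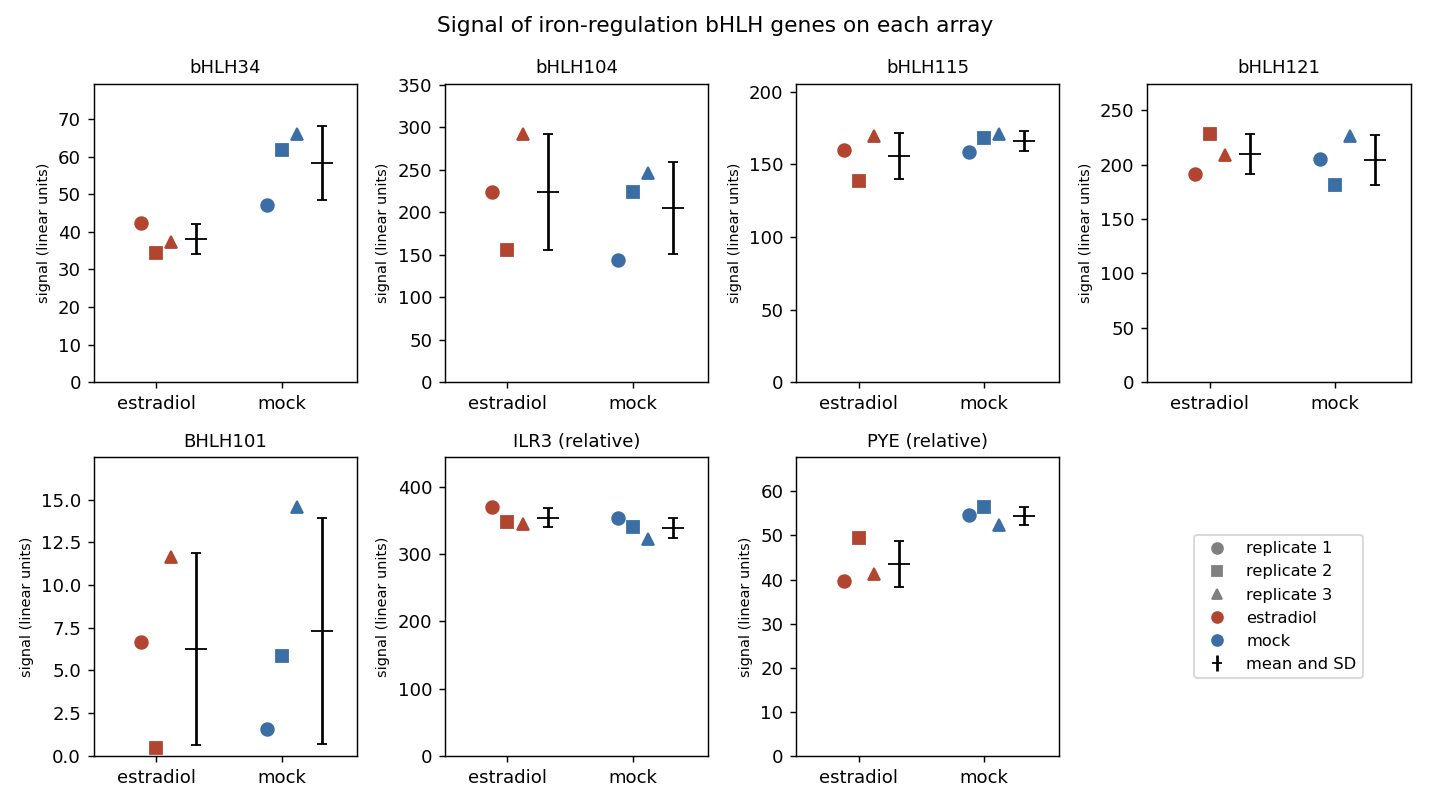
Signal in linear units (vertical axes from 0, each with its own scale) of the 5 bHLH genes and of their relatives ILR3 and PYE on the estradiol arrays (left) and mock arrays (right); symbols are replicates, and black bars are means with SD. For bHLH34 the estradiol arrays lie between 34.5 and 42.4 and the mock arrays between 47.2 and 66.1, while the groups overlap for bHLH104, bHLH115, bHLH121, BHLH101 and ILR3.

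An order of arrays that does not follow the treatment recurred among the members. In bHLH104, BHLH101 and bHLH115 the pair of lowest arrays was estradiol replicate 2 and mock replicate 1, and the pair of highest was estradiol replicate 3 and mock replicate 3. This holds for 3 of the 5 members and for 2.34% of all probe sets tested. The order was noticed in the values of these same 5 genes and then counted, so no test is given. Of the 3, BHLH101 lay under the pseudocount on all 6 arrays. In bHLH115 mock replicate 1 (158) was close to estradiol replicate 1 (160), and mock replicate 2 (168) to estradiol replicate 3 (170). The spread was wide in bHLH104, from 143 to 292. Estradiol replicate 3 and mock replicate 3 also had the highest 25S rRNA signals, 1323 and 1534. Estradiol replicate 2, in the lowest pair, had 1216, close to estradiol replicate 3. Mock replicate 2, outside the lowest pair, had the lowest rRNA signal, 286. The part of the rRNA signal in the order was not tested. In bHLH34 estradiol replicate 2 was again the lowest array and mock replicate 3 the highest, with the groups apart. bHLH121 differed from these, with its highest value, 228, on estradiol replicate 2 and its lowest, 181, on mock replicate 2.

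**Figure D2:**
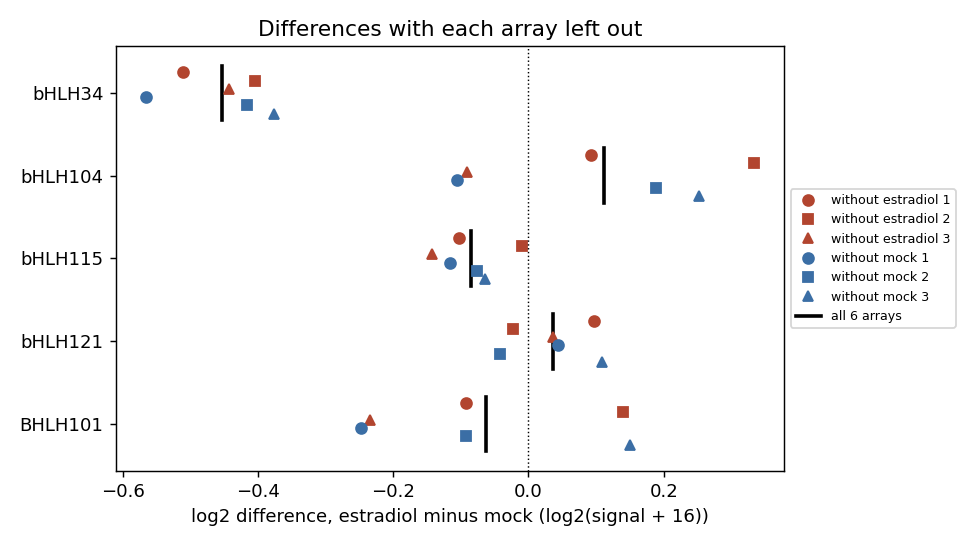
Log2 difference, estradiol minus mock on log2(signal + 16), of each of the 5 bHLH genes with all 6 arrays (black line) and with each array left out (symbols; red for an estradiol array, blue for a mock array). bHLH34 stays between -0.57 and -0.38 and bHLH115 between -0.14 and -0.01, while bHLH104, bHLH121 and BHLH101 lie on both sides of 0.

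Other genes of iron supply were taken from a list of 50 names, written after the members were known, of which 4 were measured by a probe set of their own. ILR3 (AT5G54680), the remaining subgroup IVc gene, gave 369.9, 348 and 345 with estradiol, against 354, 340.2 and 323 in mock. The groups overlapped, with a log2 difference of 0.06 (limma adjusted p = 0.896, 95% interval -0.16 to 0.28). PYE (AT3G47640), which represses iron storage and transport genes, gave 39.6, 49.4 and 41.3 with estradiol, against 54.7, 56.4 and 52.3 in mock. Its estradiol arrays all lay below its mock arrays, as for bHLH34 and for 7.74% of all probe sets. The log2 difference was -0.25 ± 0.104 SE, with a limma p of 0.0486 and an adjusted p of 0.583. The unadjusted limma p was 0.0275 without estradiol replicate 2 and 0.152 without estradiol replicate 1, the ends of its range with single arrays left out.

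Enzymes of coumarin secretion, by which roots mobilise iron, gave no call either. F6'H1 (AT3G13610), which makes the precursor of scopoletin, gave 43.0, 14.2 and 40.9 with estradiol, against 59.1, 39.0 and 74.3 in mock. Its lowest mock array lay below 2 estradiol arrays. The log2 difference of -0.63 ± 0.3 SE had a limma p of 0.0763 and an adjusted p of 0.639. It was -0.31 without estradiol replicate 2. With the replicate number as a block in limma, the p was 0.00508 and the adjusted p 0.342, so F6'H1 did not pass there either. BGLU42 (AT5G36890), a glucosidase that frees coumarins for export, averaged 53.3 ± 10.2 with estradiol and 52.1 ± 7.71 in mock (SD, n = 3 each; log2 difference 0.02, limma adjusted p = 0.985). Of the 4 listed genes measured, 0 passed the threshold in either direction, a likely count where 0.114% of all probe sets passed. Their median log2 difference was -0.11, beside -0.03 over all probe sets.

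bHLH genes that carry other names were compared through a list of 48, of which 13 have a probe set of their own, PYE and ILR3 among them. The list was chosen with earlier results of these data known. None of the 13 passed an adjusted p of 0.05 in limma, against 0.114% of all probe sets tested. At an unadjusted limma p under 0.05, 0 were higher and 4 lower, against 3.96% and 4.58% of all. The median log2 difference of the 13 was -0.21, beside -0.03 over all probe sets. The same 4 genes had all estradiol arrays below all mock arrays, 30.8% of the 13 against 7.74% of all probe sets tested; they were NAI1, SPT, ALC and PYE, of which ALC and PYE were named after their values were seen. Of these, NAI1 (AT2G22770), which controls the endoplasmic reticulum bodies that hold PYK10, gave 34.5, 30.5 and 39.0 with estradiol, against 52.2, 54.1 and 52.1 in mock. Its log2 difference was -0.44 ± 0.102 SE with a limma p of 0.00348 and an adjusted p of 0.293, and its mock arrays lay close together where those of bHLH34 did not. PYK10 itself had a log2 difference of -0.27 (adjusted p = 0.709 in limma) with overlapping groups, and -0.089 without estradiol replicate 2.

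SPT (AT4G36930) and ALC (AT5G67110) are close relatives with roles in fruit development. SPT gave 23.2, 21.2 and 22.6 with estradiol, against 27.7, 35.0 and 28.9 in mock (log2 difference -0.28, limma adjusted p = 0.531). ALC gave 11.4, 9.79 and 18.3 with estradiol, against 20.2, 20.5 and 19.4 in mock (log2 difference -0.32, limma adjusted p = 0.579), partly under the pseudocount. Whether the members differ from these 13 genes was not tested.

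**Figure D3:**
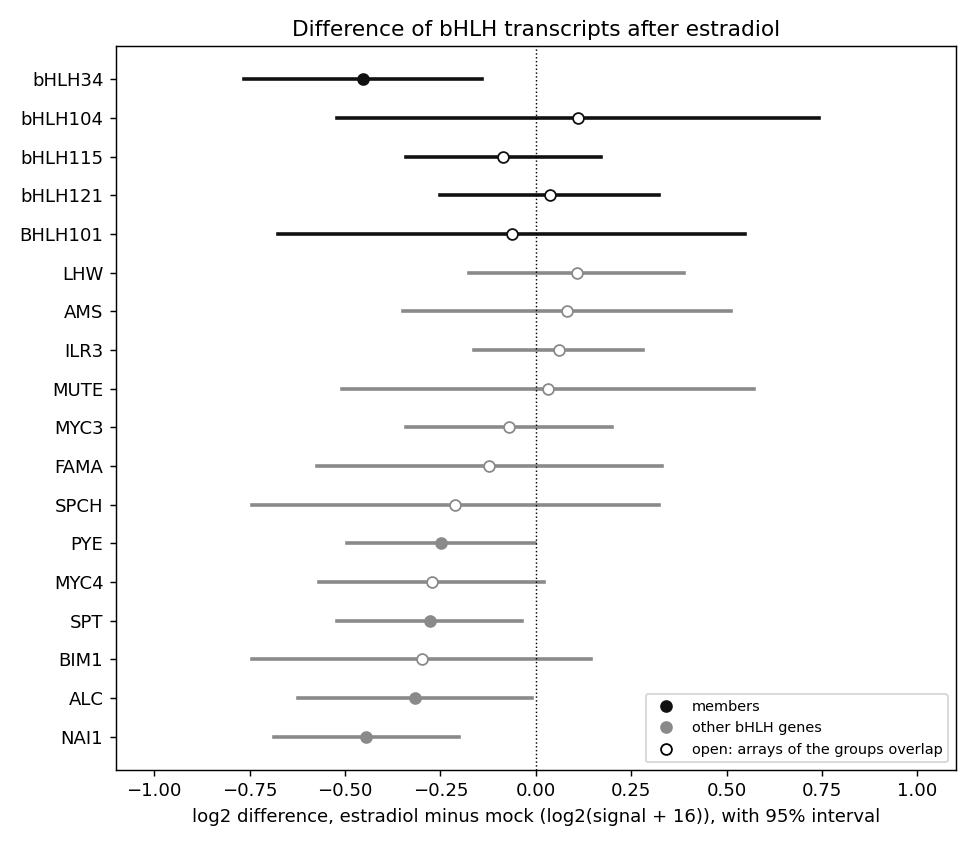
Log2 difference, estradiol minus mock on log2(signal + 16), with its 95% interval from limma, for the 5 members (black) and 13 other bHLH genes (grey); filled points mark genes whose estradiol and mock arrays do not overlap. The intervals of bHLH34, NAI1, SPT, ALC and PYE end below 0 before adjustment, and those of the other 13 genes span 0.

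MYB-related and homeobox genes under other names were few in the annotation used, with 2 of 28 listed genes measured in each class. The other listed genes may still be on the array, since 8730 probe sets have no gene listed. None of those measured passed the threshold, against 0.114% of all probe sets. HAT2 (AT5G47370), an auxin-induced HD-Zip II gene, gave 97.5, 88.1 and 97.5 with estradiol, against 68.4, 66.7 and 73.1 in mock, with all estradiol arrays above all mock arrays, as in 5.79% of all probe sets. Its log2 difference was 0.37 ± 0.095 SE with a limma p of 0.00614 and an adjusted p of 0.36. The leaf polarity gene PHV had a difference of 0.17 (limma adjusted p = 0.78), the growth regulator gene KUA1 0.21 (0.818) and the trichome repressor gene TRY -0.36 (0.672). KUA1 was at 0.017 without mock replicate 2 and 0.41 without mock replicate 3. TRY lay under the pseudocount on all 6 arrays and was at -0.17 without estradiol replicate 2.

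Enzyme and response genes that MYB and PIF factors are known to control gave 0 calls too. With 0.114% of all probe sets passing and few listed genes measured, 0 was the likely count and says little about these pathways. Among flavonoid enzymes 5 of 13 were measured, with UGT78D2 at a log2 difference of -0.33 and UF3GT at -0.42 (limma adjusted p = 0.596 and 0.646). Against mock replicate 3 alone they were at -0.092 and -0.0081, and UF3GT lay under the pseudocount on 5 of 6 arrays. Among glucosinolate enzymes 2 of 17 were measured, BCAT4 at 0.34 and UGT74B1 at 0.14 (adjusted p = 0.894 and 0.872). Among genes known as PIF targets 4 of 18 were measured, with IAA29 at -0.29 and EXPA8 at -0.47 (adjusted p = 0.641 and 0.659). EXPA8 was at -0.18 without mock replicate 3, and IAA29, under the pseudocount on all 6 arrays, was at -0.16 without estradiol replicate 2. For IAA29 every estradiol array lay below every mock array, as in 7.74% of all probe sets. The lists of flavonoid, glucosinolate, secondary wall and stress regulators had 0 genes with an annotated probe set of their own.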

How the data were processed

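The authors deposited a linear intensity for each probe set on each of the 6 arrays, which were hybridised with biotin-labelled total RNA in 1 colour, per the labels. The submitters' processing notes name GCOS and affy; the summary method and genome build are not given in the sources used here, so no coordinates are printed. Probe sets were named from GEO's platform annotation, with symbols brought up to date by Entrez ID (RefSeq, TAIR10.1); 8730 probe sets have no gene listed and 503 have several.

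After removal of 64 control probe sets, log2(intensity + 16) of 22746 probe sets was fitted with limma 3.58.1 in R 4.3.3 (lmFit, then eBayes; a two-sided test of treatment, with no covariate), and p-values were adjusted over all of them by Benjamini-Hochberg. With 3 arrays a group the smallest exact permutation p is 0.1, so p-values rest on limma's pooled spread; 3 arrays a group limit the precision. The script was tested on simulated data. Figures used matplotlib 3.10.9.

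The members and lists were chosen with earlier results of these data known, and the iron list after the members were found. All members were named. From each further list the 2 genes with the smallest p were named, from the iron list all 4 measured, and besides these PYK10 and the bHLH genes whose groups do not overlap. Of the tissue marker lists, 1 root and 1 shoot gene are described above, of 3 and 2 measured. All 3 root and 2 shoot genes had negative differences, against 57.1% of all probe sets. The root gene EXPA18 gave 20.6, 17.8 and 21.8 with estradiol, against 29.6, 22.4 and 29.5 in mock. Its groups did not overlap (log2 difference -0.26, limma adjusted p = 0.606). Of the guard cell genes 3 were measured, 0 of them past the threshold, against 0.114% of all probe sets. Of the flower and seed genes 0 had a probe set annotated to them alone.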

Additional observations from a re-analysis of the deposited data

How the results depend on the processing

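The number of members past the threshold was 0 under all 15 alternatives: the replicate block, quantile normalization, a filter at the 25th percentile (which left out BHLH101), pseudocounts of 1 and 64, an intensity trend, array weights, each array left out and 2 sets of arrays. In 6 of these (a pseudocount of 1, without mock replicate 2, without estradiol replicate 1, without estradiol replicate 2, and both sets of arrays) 0 of all 22746 probe sets passed, and in the other 9 between 1 and 97 did, so the count of 0 shows no stability. The median log2 difference of the members, -0.06 with all arrays, ranged from -0.14 to 0.11 as arrays were left out singly, the highest being without mock replicate 3. bHLH34 was negative under all 15, from -0.61 to -0.26, with unadjusted limma p from 0.00334 to 0.0711. With groups that do not overlap, its negative sign was bound to hold whichever arrays or pseudocount were used. bHLH115, whose groups overlap, was negative too, from -0.14 to -0.01. With mock replicate 3 as the only mock array the sign turned for bHLH104 (-0.17), bHLH121 (-0.11), KUA1 (-0.20), PHV (-0.029) and BCAT4 (-0.35). Without both arrays numbered 3 it turned for UGT74B1 (-0.13) and BGLU42 (-0.16), and with array weights for BGLU42 (-0.0077). With each array left out, the range was -0.11 to 0.33 for bHLH104, -0.25 to 0.15 for BHLH101, -0.042 to 0.11 for bHLH121, -0.073 to 0.14 for BGLU42, -0.22 to 0.69 for BCAT4, -0.020 to 0.28 for UGT74B1, 0.017 to 0.41 for KUA1, 0.072 to 0.26 for PHV, -0.58 to -0.17 for TRY, -0.63 to -0.23 for UF3GT, -0.37 to -0.16 for IAA29, -0.66 to -0.18 for EXPA8, -0.82 to -0.31 for F6'H1 and -0.41 to -0.089 for PYK10; the causes were not tested. The replicate numbers were not taken as pairs, since the deviations of same-numbered arrays correlated at 0.091, 0.11 and 0.33 and the first is not over 0.1; with the replicate block bHLH34 had a log2 difference of -0.45 and an adjusted p of 0.441, and 17 probe sets passed in all, against 26 without the block. Dim signal limits BHLH101, whose difference was -0.33 with a pseudocount of 1 and -0.02 with 64, and TRY, UF3GT and IAA29, which were at -1.23, -1.03 and -0.996 with a pseudocount of 1.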
